A study of Sus scrofa with 14 samples.

Results

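Immediate-early transcription factors are encoded by genes that a cell switches on directly, without first making new protein. The genes FOS, JUN, KLF6, NR4A3, EGR1, ATF3 and MYC were followed in pig meniscus through every array probe whose RefSeq accession is a transcript of one of them. This gave 5 of the 7 listed genes, among 2389 genes named on the array, and 13 probes among 43603 non-control probes: 1 probe of FOS, 1 of JUN, 4 of KLF6, 4 of NR4A3 and 3 of MYC. No probe carried a RefSeq transcript of EGR1 or ATF3, and these genes were not analysed here.

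RNA from the meniscus, the fibrocartilage pad between femur and tibia, was measured on single-colour Cy3 arrays, 1 array for each of 14 healthy male Hainan Wuzhishan pigs that were 6 to 7 months old and had been divided at random. The osteoarthritis (OA) group is 7 pigs whose anterior cruciate ligament was operated on, with the tissue collected 24 weeks later. The sham group is 7 pigs sampled at the same 24 weeks after a sham operation. The OA animals are a surgical model in young males, and how the ligament was operated on, which knee was taken and whether the stated age is that at surgery are not given in the sources used here.

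FOS and JUN proteins pair to form AP-1, a DNA-binding complex known in cartilage for sites in the promoters of collagenase and other matrix-degrading enzymes. KLF6 is a zinc-finger factor of the Krüppel-like family, NR4A3 is an orphan nuclear receptor whose activity follows its abundance, and MYC pairs with MAX to drive genes of growth and metabolism. All are known to be induced transiently by growth factors, cytokines and mechanical load, and their transcripts are short-lived, so a single sampling time catches each animal at one moment.

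The 2 groups differed in array brightness. The raw 75th percentile of the signal was 273.7 ± 124.4 in OA and 537.5 ± 82.0 in sham (SD, n = 7 each, exact permutation test, two-sided, adjusted p = 0.0035), and 78.1% ± 8.88 of probes in OA and 91.2% ± 1.80 in sham were well above background (exact permutation test, adjusted p = 0.0012, both adjusted over the 2 measures). Arrays that shared a scan start time are called a slide here, and slides were numbered by array order. OA arrays lay on slides 3, 4 and 5 and sham arrays on slides 1 and 2. All sham arrays were scanned on day 1, OA 1 on day 2 and OA 2 to OA 7 on day 3. Neither slide nor scan day can be told apart from group. Of 14 markers listed for meniscus and cartilage, 5 were measured (ACAN, SOX9, DCN, HAPLN1 and SPARC), and all 5 were well above background on all 14 arrays.

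Values below are log2 of the processed signal minus log2 of the same array's 75th percentile, so 0 is the level of the 75th percentile and a difference of 1 is a doubling on the array's scale. Probes of a gene are numbered from the brightest, and probe 1 stands for the gene. A probe was well above background when the scanner software marked it so. All 13 probes were so on at least 7 of the 14 arrays, the minimum for testing; 12 were on all 14, and NR4A3 probe 4 was on 5 of 7 OA and 7 of 7 sham arrays.

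**Figure D1:**
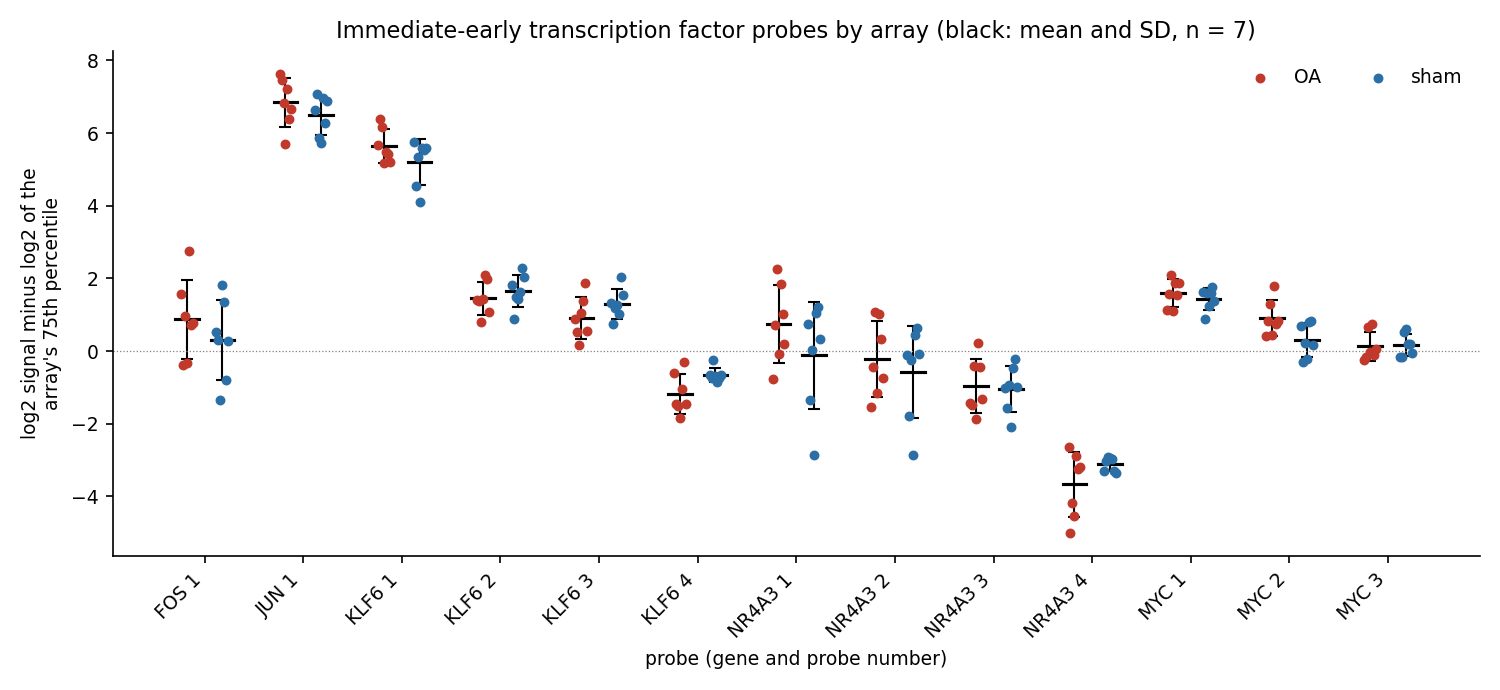
Level of each of the 13 probes on each array, as log2 signal minus log2 of the array's 75th percentile, with OA (red) left of sham (blue); black bars are the mean and SD of 7 arrays. The groups overlap for every probe, and FOS probe 1 and NR4A3 probes 1 and 2 have the widest spread within both groups.

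None of the 13 probes passed the threshold between OA and sham (limma, Benjamini-Hochberg adjusted p under 0.05 over 38818 tested probes), where 3.74% of all tested probes did (2.88% of all tested probes higher in OA and 0.853% lower). Without OA 1, more probes were called lower than higher, 1412 against 1308. Adjusted p-values for the 13 ran between 0.19 and 0.95. At an unadjusted p under 0.05 there were 2 of 13, MYC probe 2 and KLF6 probe 4, beside 19.6% of all tested probes. No probe had groups that did not overlap, beside 1.73% of all probes. The OA mean was above the sham mean for 8 of 13 probes, beside 44.9% of all probes, with a median difference of 0.16 against -0.050 over all probes. In bulk tissue, fewer cells of a type and less RNA per cell cannot be told apart.

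**Figure D2:**
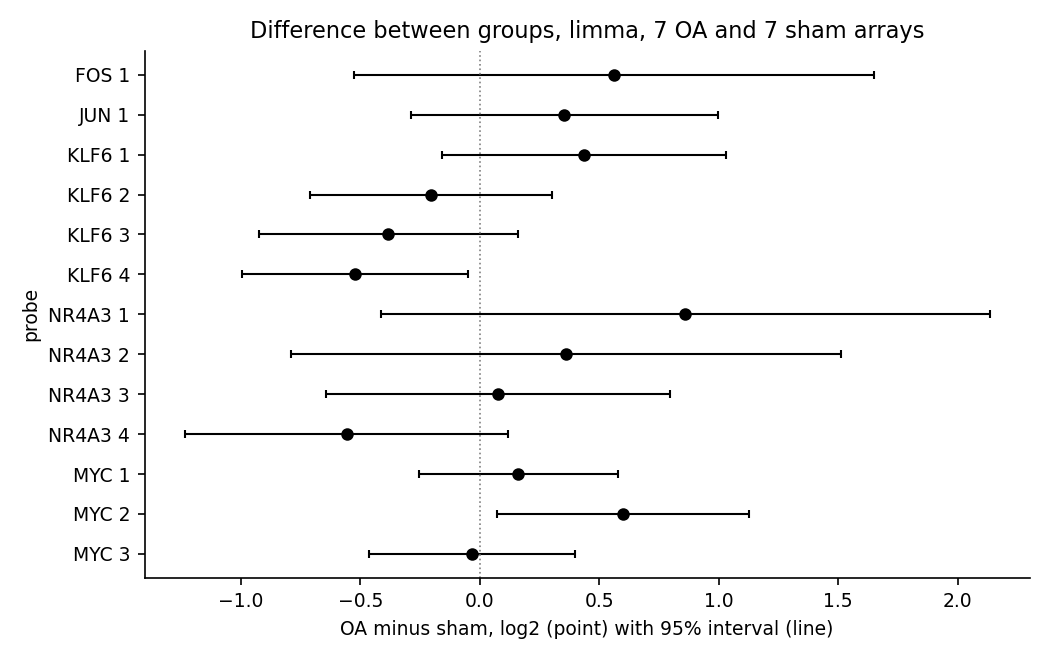
OA minus sham in log2 units for each of the 13 probes, as the limma estimate (point) with its 95% interval (line), from 7 OA and 7 sham arrays. Only the intervals of KLF6 probe 4 and MYC probe 2 leave out 0, on opposite sides, and neither passes after adjustment.

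The AP-1 subunits FOS and JUN were each read by 1 probe. FOS probe 1 (A_72_P441284, transcript NM_001123113) had a lowest value of -0.39, a median of 0.78 and a highest value of 2.76 in OA, against -1.33, 0.29 and 1.82 in sham. The highest OA animals were OA 5 at 2.76 and OA 1 at 1.58, and the lowest were OA 2 and OA 4 at -0.39 and -0.32. In sham, animal 4 was highest at 1.82 and animal 3 lowest at -1.33, so the groups overlapped over most of their range. The linear range between animals was 8.86-fold within OA and 8.90-fold within sham. OA minus sham was 0.56 ± 0.52 (SE, 95% interval -0.53 to 1.65, limma adjusted p = 0.58), a difference smaller than the pooled SD within groups of 1.096. The estimate was 0.25 without OA 5 and 0.29 without sham 3. With array brightness as a covariate it was 1.17 ± 0.84 (SE, limma adjusted p = 0.77), a wider error than the 0.52 without the covariate. The spread of FOS within groups was larger than that of 97.3% of tested probes. With 1 array for each animal, spread between animals and spread of the assay cannot be told apart.

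JUN probe 1 (A_72_P178031, NM_213880) had a lowest value of 5.70, a median of 6.84 and a highest value of 7.63 in OA, against 5.73, 6.63 and 7.08 in sham. Animals OA 1, OA 2 and OA 5 lay above every sham animal and OA 4 lay just below the lowest. OA minus sham was 0.35 ± 0.30 (SE, 95% interval -0.29 to 1.00, limma adjusted p = 0.55), that is 1.28-fold with an interval of 0.82-fold to 1.99-fold. It was 0.22 without OA 1, 0.23 without sham 4, 0.55 without OA 4 and 0.039 without slides 3 and 4. The range between animals was 3.84-fold in OA and 2.56-fold in sham, and the spread of JUN lay above that of 74.3% of tested probes.

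NR4A3, the nuclear receptor also known as NOR-1, had by probe 1 the widest SD pooled over both groups among the 5 genes. Probe 1 (A_72_P302674, NM_214247) had a lowest value of -0.77, a median of 0.73 and a highest value of 2.25 in OA, against -2.87, 0.34 and 1.20 in sham. Animals OA 3 and OA 5, at 2.25 and 1.85, were above every sham animal, while sham 4 at -2.87 and sham 2 at -1.34 were below every OA animal. The linear range was 8.11-fold within OA and 16.8-fold within sham. OA minus sham was 0.86 ± 0.60 (SE, 95% interval -0.41 to 2.13, limma adjusted p = 0.45), against an SD of 1.07 in OA and 1.48 in sham. The SD within groups exceeded that of 98.7% of tested probes. As each array was left out the estimate lay between 0.40 and 1.11, and the lowest came without sham 4. Without slide 4 it was 0.27. Within OA alone FOS had the wider SD, 1.09 against 1.07 for NR4A3 probe 1.

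The estimates of the other NR4A3 probes were nearer 0 or negative. Probe 2 (A_72_P637266) gave 0.36 ± 0.54 and probe 3 (A_72_P574174) gave 0.077 ± 0.34 (SE, limma adjusted p = 0.76 and 0.93). Probe 4 (A_72_P413628) averaged -3.67 ± 0.90 in OA and -3.11 ± 0.20 in sham (SD, n = 7 each), a difference of -0.56 ± 0.32 (SE, limma adjusted p = 0.35). Across arrays its value was related to the share of probes well above background, short of the threshold after adjustment (r = 0.80, rho = 0.82 over 14 arrays with group means removed, and r = 0.80 without OA 7 and OA 4; permutation p = 0.036 and 0.015, adjusted over 26 such relations 0.93 and 0.40). Under the normexp background correction its difference was 0.40, of opposite sign, with limma adjusted p = 0.017, where the median over all probes was itself 0.34.

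KLF6 was read by 4 probes of the same transcript (NM_001134353). Probe 1 (A_72_P607553) had a lowest value of 5.17, a median of 5.47 and a highest value of 6.38 in OA, against 4.09, 5.53 and 5.76 in sham. OA 2 and OA 3 lay above all sham animals, and sham 4 and sham 2 lay below all OA animals, at 4.09 and 4.54. OA minus sham was 0.44 ± 0.28 (SE, 95% interval -0.16 to 1.03, limma adjusted p = 0.41). It was 0.25 without sham 4, 0.23 without slide 4 and 0.11 without slides 3 and 4.

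Probes 2, 3 and 4 of KLF6 had negative differences. Probe 2 (A_72_P217292) gave -0.20 ± 0.24 and probe 3 (A_72_P251132) gave -0.38 ± 0.26 (SE, limma adjusted p = 0.68 and 0.43). Probe 4 (A_72_P262797) had a lowest value of -1.85, a median of -1.44 and a highest value of -0.29 in OA, against -0.85, -0.67 and -0.25 in sham. In OA 5 of 7 animals were below the lowest sham animal, among them OA 2 to OA 5, which make up slide 4. The SD was 0.55 in OA and 0.19 in sham. The difference was -0.52 ± 0.22 (SE, 95% interval -0.99 to -0.051, limma adjusted p = 0.21). It was -0.13 without slide 4 (limma adjusted p = 0.90) and -0.15 with array brightness as a covariate (limma adjusted p = 0.95). The mean of the 4 probes, each with equal weight, gave -0.17 (limma adjusted p = 0.67), so the sign for KLF6 depends on the probe. The geometric mean signal was 15739 for probe 1, against 1076, 793 and 195 for probes 2, 3 and 4.

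MYC varied least between animals among the 5 genes when each was read by probe 1. Probe 1 (A_72_P165831, NM_001005154) had a lowest value of 1.11, a median of 1.56 and a highest value of 2.10 in OA, against 0.87, 1.59 and 1.77 in sham. OA 3, OA 7 and OA 5 were above every sham animal, and sham 2 was the lowest of all. The range was 1.98-fold in OA and 1.86-fold in sham, and OA minus sham was 0.16 ± 0.20 (SE, 95% interval -0.26 to 0.58, limma adjusted p = 0.69). It was 0.067 without sham 2, 0.078 without OA 3 and 0.24 without OA 4. With brightness as a covariate it was 0.47 ± 0.31 (SE, limma adjusted p = 0.74).

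MYC probe 2 (A_72_P592239) had a lowest value of 0.42 in OA, its median was 0.82 and its highest value 1.80, against -0.31, 0.23 and 0.82 in sham. All 7 OA animals lay above the sham mean and 4 lay above the highest sham animal. The difference was 0.60 ± 0.25 (SE, 95% interval 0.071 to 1.13, limma adjusted p = 0.19), or 1.51-fold. It kept its sign in all 29 alternatives, at 0.35 to 0.80, and passed the threshold in none of them, with adjusted p between 0.084 and 0.70. Some of these alternatives, such as the filters and the replicate block, leave the estimate unchanged. MYC probe 3 (A_72_P557580) gave -0.033 ± 0.20 (SE, limma adjusted p = 0.95).

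Co-variation between animals was measured over the 14 arrays as the correlation of deviations from the group mean, with 1 probe for each gene and 10 gene pairs. Of the 10 pairs, 7 had a positive r and 2 passed the threshold, both involving NR4A3 (permutation of arrays within groups, two-sided, 100000 resamples, adjusted over 10 pairs). As background, all 2548153 pairs of 2258 named genes had a median r of 0.030, and 90% of them lay between -0.58 and 0.64. All values of an array share its scaling and its RNA sample.

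By probe 1, NR4A3 and MYC tended to be high and low in the same animals. Over the 14 arrays r was 0.75 and rho 0.79 (permutation p = 0.0025 and 0.0016, adjusted 0.025 and 0.016). Animals OA 3 and OA 5 were high for both genes, and OA 1, OA 4, sham 2 and sham 4 were the 4 lowest for both. Within OA r was 0.82 and rho 0.71 (n = 7, exact permutation p = 0.029 and 0.088, adjusted 0.29 and 0.44), and within sham r was 0.75 and rho 0.89 (n = 7, exact permutation p = 0.046 and 0.012, adjusted 0.17 and 0.12). Without sham 4 and OA 1, the arrays farthest from the median of NR4A3, r was 0.80, and with deviations taken from the slide mean it was 0.71 (13 arrays, adjusted permutation p = 0.26, so the call was lost). The r was higher than that of 98.2% of all named gene pairs. Over the 12 pairs of an NR4A3 probe with a MYC probe, r lay between -0.026 and 0.87 and was positive in 11. These pairs are not independent, as NR4A3 probes 1 to 3 had r of 0.86 to 0.99 with each other. The highest values were between NR4A3 probes 1 to 3 and MYC probe 2. MYC probe 3 had r = 0.21, 0.29 and 0.41 with NR4A3 probes 1, 2 and 3. Within OA these were 0.84, 0.83 and 0.77, and within sham -0.36, -0.26 and -0.16. The call was also lost without OA 3 (r = 0.71, adjusted permutation p = 0.068), without slide 4 (r = 0.69, adjusted p = 0.16), and with quantile normalization or the authors' table (r = 0.62 in both, adjusted p = 0.082 and 0.080).

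KLF6 and NR4A3 had r = 0.76 and rho = 0.64 over the 14 arrays (permutation p = 0.0058 and 0.020, adjusted 0.029 and 0.10), and this rested on few animals. Within OA r was 0.37 and rho 0.36 (n = 7, exact permutation p = 0.41 and 0.44, adjusted 0.77 and 0.83), and within sham r was 0.96 and rho 0.68 (n = 7, exact permutation p = 0.0054 and 0.11, adjusted 0.054 and 0.55); the difference between the groups was not tested. Without sham 4 and sham 2, the arrays lowest for both genes, r was 0.50, and without sham 4 alone it was 0.59 with an adjusted permutation p of 0.16. The call was also lost without sham 2 (r = 0.73, adjusted permutation p = 0.091), OA 3 (r = 0.73, adjusted p = 0.068) or slide 4 (r = 0.85, adjusted p = 0.15), and with the mean of all probes (r = 0.59, adjusted p = 0.17). With deviations from the slide mean r was 0.76 (13 arrays, adjusted permutation p = 0.26). With all probes of both genes the 16 probe pairs ranged between -0.39 and 0.76, and 14 were positive.

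**Figure D3:**
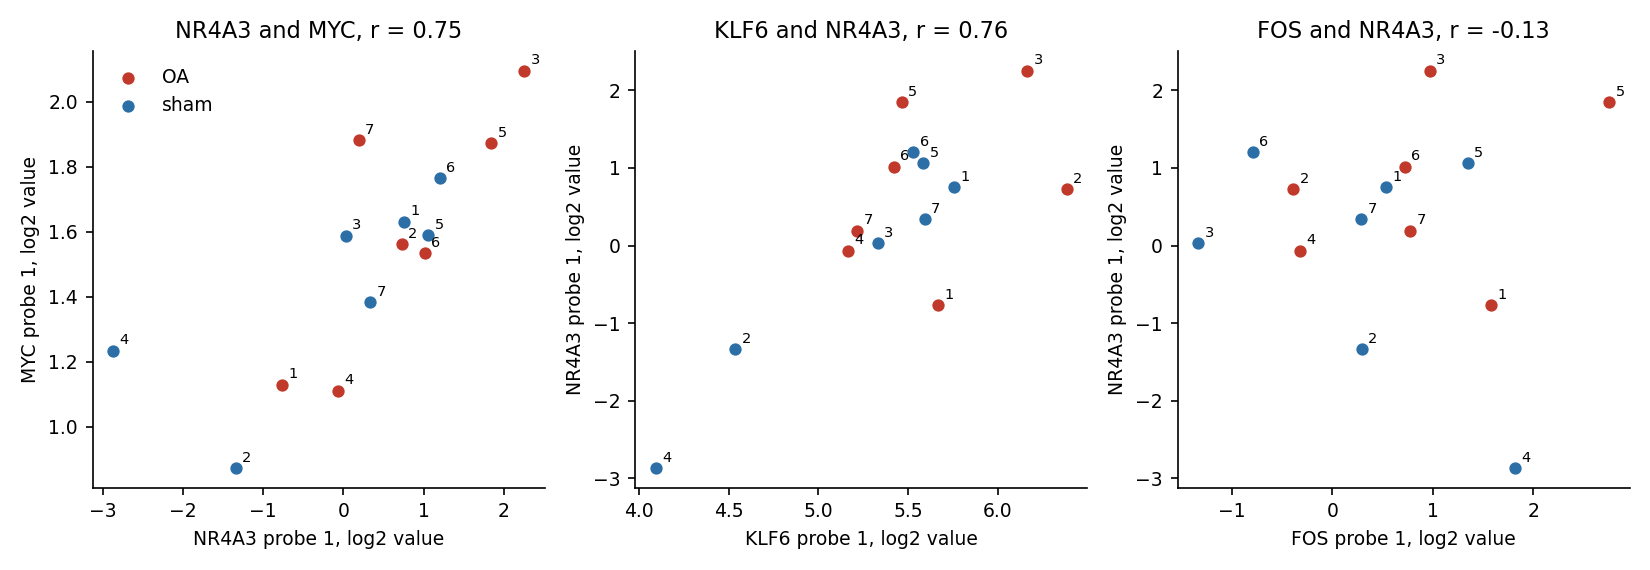
Level of one gene against another on each of the 14 arrays (log2 signal minus log2 of the array's 75th percentile), with OA in red, sham in blue and the animal number beside each point. NR4A3 and MYC have r = 0.75, KLF6 and NR4A3 have r = 0.76 with sham 2 and sham 4 lowest for both, and FOS and NR4A3 have r = -0.13 with sham 4 at opposite ends.

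No pair with an AP-1 subunit passed the test. FOS and JUN had r = 0.32 and rho = 0.30 with each other (permutation p = 0.28 and 0.32, adjusted 0.50 and 0.64), and 0.15 without OA 5 and sham 3. FOS had r = -0.13 with NR4A3, -0.31 with KLF6 and 0.031 with MYC (rho 0.051, -0.14 and 0.055, adjusted permutation p of r 0.83, 0.50 and 0.98). Within OA the r of FOS with NR4A3 was 0.31, and within sham it was -0.45. The difference between the groups was not tested. Sham 4 held the highest FOS value of its group and the lowest NR4A3 and KLF6 values of all 14 animals. JUN had r = 0.45 with KLF6, 0.21 with NR4A3 and -0.0095 with MYC (rho 0.42, 0.033 and -0.068, adjusted permutation p of r 0.28, 0.68 and 0.98). Without OA 4 and sham 4 these r were 0.090, -0.33 and -0.54. KLF6 and MYC had r = 0.51 and rho = 0.52 (adjusted permutation p = 0.22 and 0.24), and passed with median scaling (r = 0.69, adjusted permutation p = 0.036).

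**Figure D4:**
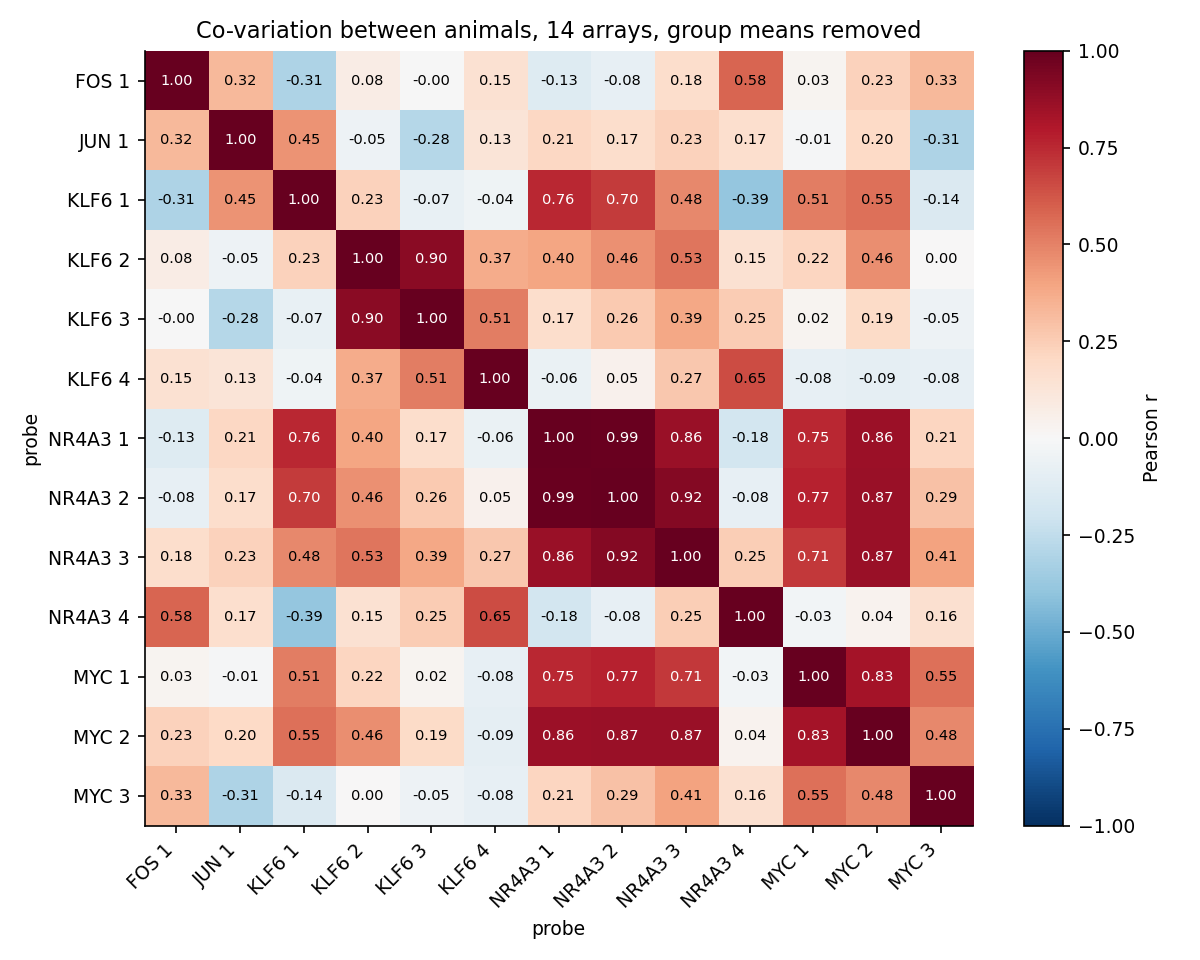
Pearson r between the 13 probes over 14 arrays after removing group means; red is positive and blue negative. NR4A3 probes 1 to 3 and MYC probes 1 and 2 form a block of r between 0.71 and 0.99, KLF6 probes 2 and 3 reach 0.90 with each other, and NR4A3 probe 4 and KLF6 probe 1 stand apart from other probes of their genes.

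Probes of a gene did not always vary alike. NR4A3 probes 1 and 2 had r = 0.99, probes 2 and 3 had 0.92 and probes 1 and 3 had 0.86, while probe 4 had -0.18, -0.082 and 0.25 with these. MYC probes 1 and 2 had r = 0.83, and probe 3 had 0.55 and 0.48 with them. KLF6 probes 2 and 3 had r = 0.90, whereas probe 1, which stands for the gene, had 0.23, -0.071 and -0.043 with probes 2, 3 and 4. With NR4A3 probes 1, 2 and 3, KLF6 probe 1 had r = 0.76, 0.70 and 0.48, and KLF6 probe 2 had 0.40, 0.46 and 0.53.

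Array brightness and markers of other cells were set beside the members. Of 26 relations of the 13 probes to raw brightness or to the share of probes well above background, none passed a permutation test after adjustment. The summed linear levels of 9 marker lists were compared with the 5 genes in 45 relations, and none passed (lowest adjusted permutation p = 0.58). NR4A3 had r between -0.32 and 0.38 with the lists, MYC between -0.36 and 0.50 (highest with adipocyte markers), KLF6 between -0.031 and 0.53 (highest with endothelial markers), JUN between -0.45 and 0.53 (highest with meniscus markers) and FOS between -0.53 (smooth muscle and pericyte) and 0.19. Of single endothelial markers, KLF6 had r = 0.64 with CDH5, 0.15 with PECAM1 and -0.075 with SELE. Without OA 1 and sham 2, MYC with the adipocyte list had r = 0.089. Without sham 4 and OA 5, JUN with the meniscus list had r = 0.58. The lowest r of KLF6 and of NR4A3 came with the erythrocyte list, where 1 of 5 genes was measured. In units of the array's 75th percentile, the 5 meniscus markers summed to 492 to 1046 in OA and 378 to 840 in sham, and the 3 endothelial markers measured of 6 summed to 15.6 to 42.7 in OA and 8.57 to 41.5 in sham.

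The named genes most like each member are given by r over the 14 arrays with group means removed, as a description of genes picked for the highest r among 2258. For NR4A3 they were ADAMTS1, a secreted metalloproteinase (0.84), KLF2, a Krüppel-like factor known from endothelium (0.82), and HSPH1, a heat shock chaperone (0.80). For MYC they were MAOA, a monoamine oxidase (0.82), DNAJA4, a chaperone partner (0.78), and SCD5, a fatty acid desaturase (0.78). For FOS they were TNFSF13, a cytokine also called APRIL (0.84), ODC1, the first enzyme of polyamine synthesis (0.75), and CYBRD1, a ferric reductase (0.74).

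JUN lay closest to OAS2 (0.79), FCGR1A (0.77) and MX2 (0.77); OAS2 and MX2 are antiviral genes induced by interferon and FCGR1A is an Fc receptor of macrophages. KLF6 probe 1 lay closest to TNFRSF1A, the main receptor of tumour necrosis factor (0.90), DNPEP, an aspartyl aminopeptidase (0.89), and CYTH2, an exchange factor of ARF proteins (0.89). The mean of the 5 genes lay closest to PKIA (0.87), KCNA5 (0.81), CYP51 (0.80), IRF2BPL (0.77), GALM (0.77) and TOB1 (0.74). PKIA is an inhibitor of protein kinase A and TOB1 an antiproliferative protein. None of these 21 genes passed the threshold between OA and sham (limma adjusted p 0.096 to 1.00).

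Other immediate-early genes were measured for 20 of 58 listed, and none passed the threshold between groups, where 3.23% of 2258 named genes did. Their differences were positive for 12 of 20, with a median of 0.059 against 0.0026 over all named genes. The smallest p-values belonged to KLF5, a Krüppel-like factor (-0.71 ± 0.38, SE, limma adjusted p = 0.32), and RHOB, a small GTPase (-0.46 ± 0.22, adjusted p = 0.26); with normexp they were 0.13 and 0.14. Wide spread within groups was shared by some of them: 5 of the 20 (NR4A2, HBEGF, IRF1, ADAMTS1 and PTGS2) and 2 of the 5 member genes (FOS and NR4A3) were among the 10% of tested probes with the widest SD within groups. These 5 genes, and those named in the next sentence, were picked after their values were seen. With NR4A3 an r above 0.64, the 95th percentile of all gene pairs, was reached by 3 of 20 (ADAMTS1, KLF2 and KLF10), with KLF6 by 2 (ADAMTS1 and ID2), with MYC by 2 (KLF2 and ADAMTS1), with FOS by 2 (KLF5 and BTG2) and with JUN by 0.

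**Figure D5:**
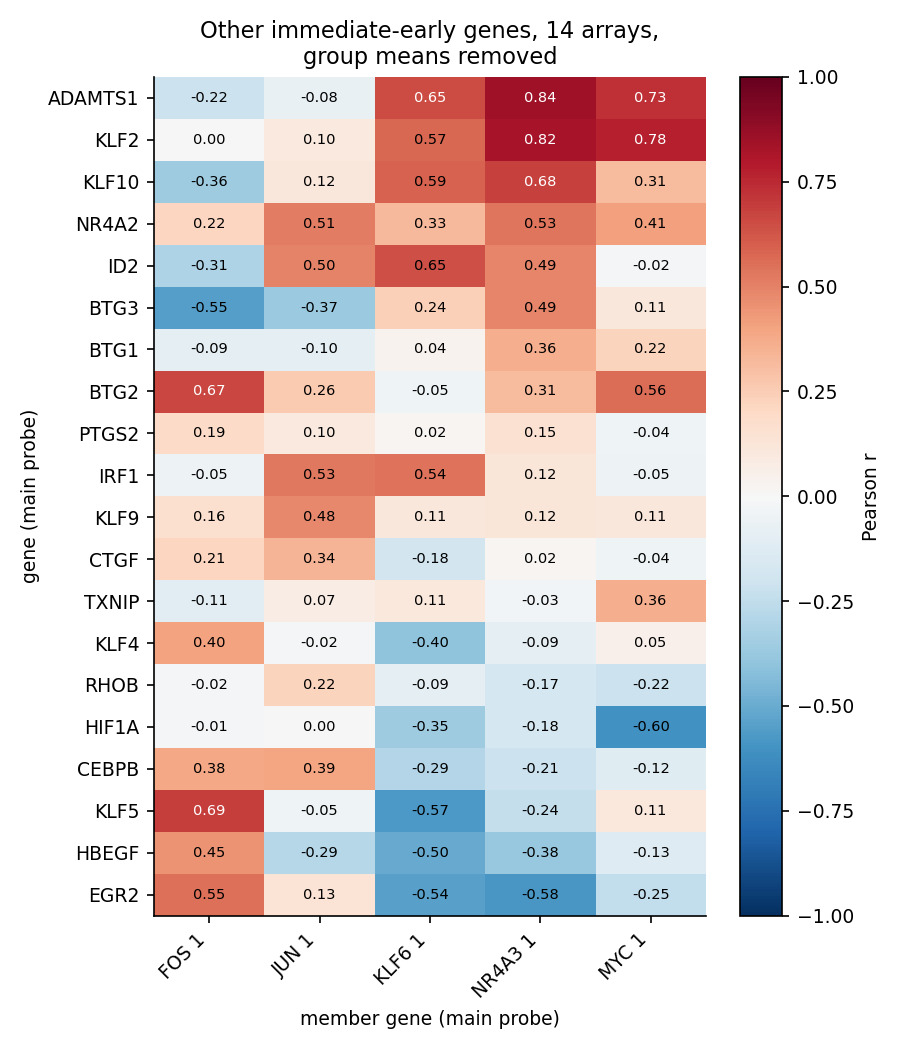
Pearson r of 20 other immediate-early genes (down the page) with the 5 member genes (across) over 14 arrays after removing group means, sorted by r with NR4A3. ADAMTS1 and KLF2 are high with NR4A3 and MYC (0.73 to 0.84) and near 0 or below with FOS, while KLF5 and BTG2 are the highest with FOS (0.69 and 0.67).

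Upstream of these factors, kinases and their phosphatases were measured for 4 of 42 listed genes and none passed. MAP2K1, the kinase that activates ERK, differed by 0.40 ± 0.29 and MAP3K7, the kinase TAK1, by -0.66 ± 0.29 (SE, limma adjusted p = 0.48 and 0.22). Upstream transcription factors were measured for 9 of 24, and none passed: STAT3, the factor activated by interleukin-6 family cytokines, differed by 0.84 ± 0.24, and RELA, a subunit of NF-kappaB, by -0.79 ± 0.24 (SE, limma adjusted p = 0.064 and 0.080). Both calls depend on the setting: STAT3 had a limma adjusted p of 0.0025 to 0.69 over the alternatives with a positive sign in each, and RELA 0.033 to 0.84, with a value of 0.041 under normexp. Dimer partners and corepressors were measured for 2 of 18, the retinoid X receptors RXRB (-0.30 ± 0.23) and RXRG (0.51 ± 0.25), with limma adjusted p of 0.49 and 0.27, and 0.00091 for RXRG with normexp. With normexp 18416 of 38818 tested probes passed, 17638 of them higher in OA, and the median difference was 0.34.

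Downstream, genes known as targets of AP-1 or EGR1 were measured for 20 of 30. Of these, 1 passed, higher in OA, where 3.23% of all named genes were called in either direction. It was LIF (leukaemia inhibitory factor, a secreted relative of interleukin-6), which averaged -2.59 ± 0.15 in OA and -3.27 ± 0.16 in sham (SD, n = 7 each), a difference of 0.68 ± 0.14 (SE, limma adjusted p = 0.014). With slide as a random block it was 0.69, with adjusted p = 0.12 in limma, so the call was lost. The call was also lost with scan day as a random block (limma adjusted p = 0.075), brightness as a covariate (0.20) and the replicate block (0.073). The same held without slide 4 (0.070) and without slides 3 and 4 (0.11). Over all alternatives the difference was 0.63 to 0.87 with limma adjusted p between 0.00032 and 0.20. The median difference of the list was 0.083. The list was chosen with earlier results of these data known, so its count is not a test. MYC targets were measured for 7 of 20, and none passed. All 7 differences were negative, with a median of -0.26 against 0.0026 over all named genes. Over all tested probes 44.9% of differences were above 0. CDK4, a cell cycle kinase, differed by -0.37 ± 0.20, and TFRC, the transferrin receptor, by -0.76 ± 0.42 (SE, limma adjusted p = 0.32 and 0.33). TFRC was well above background on 4 of 7 OA and 7 of 7 sham arrays. With normexp the differences of CDK4 and TFRC were 0.16 and 0.60, where the median over all probes was 0.34. TFRC then passed with limma adjusted p = 0.0072, as did 18416 of 38818 tested probes, 17638 of them higher in OA. Heat shock and unfolded protein response genes were measured for 8 of 25, and none passed, with the smallest p for HSPA1L, a member of the HSP70 family (0.43 ± 0.17), and GADD45A, a stress sensor (0.42 ± 0.25; limma adjusted p = 0.18 and 0.37, and 0.0015 for HSPA1L with normexp).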

How the data were processed

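The 14 deposited scanner files hold spot intensity, made with Agilent Feature Extraction 11.0.1.1, per the file headers. The authors' series table holds deposited log2 values (median 6.00 on each array; their scaling is not stated in any source used) whose ranks followed the scanner signal (rho 0.994 to 1.00), and served as an alternative. Each processed signal was divided by its array's 75th percentile over non-control spots and taken to log2. Marked spots (82) were set missing, no spot was saturated, and spots of a probe were averaged. Probes well above background on 7 or more of 14 arrays were tested (38818; 4785 left out) with limma 3.58.1 in R 4.3.3, and the script was tested on simulated data. The number of arrays limits the precision.

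Probes were named by unversioned RefSeq accession through the gene table of Sscrofa11.1 (5461 probes of 2389 genes). The brightest probe stood for a gene. Named were every member probe; from each pathway list the genes past the threshold, or else the 2 with the smallest p; the 3 genes most like each member and the 6 most like their mean; and tissue and cell markers by list. Members and lists were chosen with earlier results of these data known. Correlations used deviations from group means.

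Alternatives were quantile and median scaling, normexp (offset 50, on median in place of the planned mean spot signals), the authors' table, 2 filters, marked spots kept, slide, scan day or replicate as a block, brightness as a covariate, variance models, other correlation measures, slide 4 or each array left out, and, added after seeing the data, slides 3 and 4 left out. No probe or promoter sequence was used here, so motifs were not searched.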

Additional observations from a re-analysis of the deposited data

Results flagged for a closer look

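KLF6 probe 4 in sham 3, at -0.25, lay apart from the other sham animals, of which the nearest was at -0.65. The gap was 0.67 of the group's whole range, above Dixon's critical value for 7 samples. It was the only such value among 26 probe and group combinations checked, and chance gives about 1 in 20.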

How the results depend on the processing

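None of the 13 probes passed under any alternative except normexp, where 1 did (NR4A3 probe 4, 0.40, its sign turned). Over all probes 1450 passed, and this count was far less stable: 2245 with quantile normalization, 2256 with the authors' table, 2551 with no filter, 18416 with normexp (median shift 0.34), 18 and 119 with slide and scan day as a random block, 4 with brightness as a covariate, 237 without slide 4 and 197 without slides 3 and 4. Leaving out single arrays gave 730 to 2720, moving by over 1.5 times without OA 1 (2720), OA 2 (789), OA 3 (734), OA 5 (951), sham 1 (730), sham 2 (904), sham 3 (930) or sham 6 (825). The causes were not tested. The split was 1381 higher and 784 lower with median scaling and 17638 and 778 with normexp, 1120 and 69 with the filter on all 14 arrays and 1308 and 1412 without OA 1, against 1119 and 331.

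Animals with the same number did not deviate together (r -0.19 to 0.27 over 7 pairs, 1 of 7 best with its own number), and the replicate block gave 283 probes over all, 0 of the 13, and for LIF 0.68 with limma adjusted p = 0.073.

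Of gene pairs, 2 co-varied past the threshold. This was 3 with median scaling (KLF6 with MYC added), 1 with quantile normalization and with the authors' table (NR4A3 with MYC lost), 1 with Spearman rho and with the mean of all probes (KLF6 with NR4A3 lost), 0 with deviations from the slide mean and without slide 4, and 0 to 2 as single arrays were left out (0 without OA 3, 1 without sham 2 or sham 4, where KLF6 with NR4A3 was lost).

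Some signs turned. KLF6 probes 2 and 3 became 0.073 and 0.016 with the brightness covariate, and the mean of all KLF6 probes was -0.17. NR4A3 probe 2 became -0.084 without slide 4 and -0.050 with array weights, and probe 3 became -0.029 and -0.077. NR4A3 probe 4 was 0.40 with normexp, 0.20 with the covariate and 0.087 without slide 4, and MYC probe 3 was 0.068 with normexp and 0.026 with array weights. FOS and NR4A3 had rho 0.051, and r 0.075 with the mean of probes. FOS and MYC had -0.0098 with median scaling and -0.40 without slide 4. JUN and MYC had 0.0571 with quantile normalization and with the authors' table, 0.16 with median scaling, 0.089 with normexp and 0.14 with slide means. Of list genes, normexp gave KLF5 0.13, RHOB 0.14, RELA 0.041, CDK4 0.16 and TFRC 0.60, the covariate gave KLF5 0.24, MAP2K1 -0.014 and TFRC 0.038, and TFRC was 0.18 without slides 3 and 4. As single arrays were left out, NR4A3 probe 2 ran from -0.020 to 0.58, NR4A3 probe 3 from -0.12 to 0.23, MYC probe 3 from -0.14 to 0.038, FOS with NR4A3 from -0.34 to 0.23, FOS with MYC from -0.14 to 0.14, JUN with NR4A3 from -0.073 to 0.42 and JUN with MYC from -0.37 to 0.20. The positive differences of probe 1 of FOS, JUN, KLF6, NR4A3 and MYC kept their sign in all 29 alternatives. No probe 1 passed the threshold in any of them. The filters, marked spots kept, the replicate block and the trended and robust variances leave these estimates unchanged, and many other alternatives drop a single array. The lowest values were 0.039 for JUN without slides 3 and 4 and 0.038 for MYC with normexp. The mean of all probes, -0.17 for KLF6, is not among the 29.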
